A study of Saccharomyces cerevisiae with 6 samples.

Results

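The genes described here are 39 open reading frames of budding yeast that carry only a systematic name and whose signal differed between strains. A systematic name gives the chromosome as its second letter, the arm as L or R, the order along the arm as a number, and the strand as W or C. A frame keeps only this name while no standard name has been assigned to it. Many such frames are short, lie near chromosome ends or overlap better known genes, and some belong to Ty elements, retrotransposons that encode a Gag coat protein and a Pol polyprotein and exist as several near-identical copies. Others are ordinary conserved genes whose role is only partly known.

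The samples are chemostat cultures of the haploid yeast CEN.PK113-7D, whose RNA was hybridised to arrays. In the NOX strain the plasmid pYX212 carried NOX, a water-forming NADH oxidase that acts in the cytosol, and in the AOX strain it carried AOX, an alternative oxidase that acts in mitochondria, while the control strain held pYX212 without an insert. pYX212 is known as a multicopy vector with a URA3 marker and the TPI1 promoter. All cultures had minimal medium with 10 g/L glucose and ran at the critical dilution rate, and each strain has 2 Affymetrix Yeast Genome 2.0 arrays, numbered replicates 1 and 2, which the labels do not tie to separate cultures. The probe sets and names are those of the S288C reference strain, so which copies of a repeated frame CEN.PK113-7D holds was not measured, and fewer cells with a transcript cannot be told apart from less of it per cell. Mating type genes matched an a cell: STE2 and MFA1 lay between 2192 and 4368 on all 6 arrays, while the alpha cell genes MF(ALPHA)1, MF(ALPHA)2 and STE3 reached at most 164.

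Matched probe sets had a median intensity of 511 to 543, depending on the array. NOX replicate 1 stood apart: the mean log2 signal of its 27 hybridisation controls was 10.99, where the other arrays had 9.45 to 9.86, and that of its 7 ribosomal RNA probe sets was 5.11, where the others had 6.03 to 7.53. Members that did not meet the selection rule without this array are named with their value without it. The numbers of arrays limit the precision of every value.

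The members were chosen by measured values. Of 5498 probe sets matched to an S. cerevisiae gene, 508 belong to genes with only a systematic name, and 323 of these had a mean intensity of 100 or more over the 6 arrays. A member had to differ by 0.4 or more between the means of any pair of strains on the scale log2(intensity + 16), with the arrays of one strain all above or all below those of the other, and 39 did. All differences below are on this scale, and errors of differences are standard errors from the 2 arrays of each strain compared. Because the rule used every contrast between the strains, the differences of the members are a description, and no test of them is given. Over all 5001 probe sets at 100 or more, 6.4% met the same rule. Just inside it were YNL108C (0.40), YGR079W (0.40) and YJR154W (-0.40), and just outside YJL193W (0.40, 0.398 before rounding), YPL088W (-0.40, with the size 0.395) and YLR108C (0.39). One further frame, YKR104W, differed by 0.478 in size between NOX and control but was left out since its arrays overlapped. A further 24 frames below 100 would have met the rule for differences.

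In the patterns, a strain counts as higher or lower than another only where the pair met the rule. By pattern over the 3 strains, 19 members were higher in NOX only and 5 were lower in NOX only. In AOX only, 5 were higher and 2 lower. Both oxidase strains were higher than control for 2 members, and for none were both lower. For 3 members both oxidase strains met the rule against control on opposite sides, 2 of them lower in NOX and higher in AOX and 1 the other way round. The remaining 3 met the rule only between AOX and NOX. Some members of other patterns, YAR066W and YNL108C among them, also had the oxidase strains on opposite sides of control. Their difference from control was under 0.4 in at least 1 oxidase strain. Higher in NOX only was the most frequent pattern, at 48.7% of the members, against 19.2% of the 281 named probe sets that met the rule. These 19 members include Ty frames on shared probe sets and frames that did not meet the rule without NOX replicate 1, both described below. Against control, 22 members were higher in NOX (2.24% of all probe sets at 100 or more were) and 7 lower (0.9%), and 9 were higher in AOX (1.96%) and 3 lower (0.98%). Between AOX and NOX, 10 were higher in AOX (2.28%) and 14 lower (2.54%). The 2 comparisons with control share their control arrays. The median difference of the members was 0.42 for NOX minus control, 0.16 for AOX minus control and -0.30 for AOX minus NOX. For the named probe sets that met the rule it was 0.18, 0.11 and 0.02. Over all matched probe sets, which were not chosen by a difference, it was -0.02, -0.00 and 0.03.

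**Figure D1:**
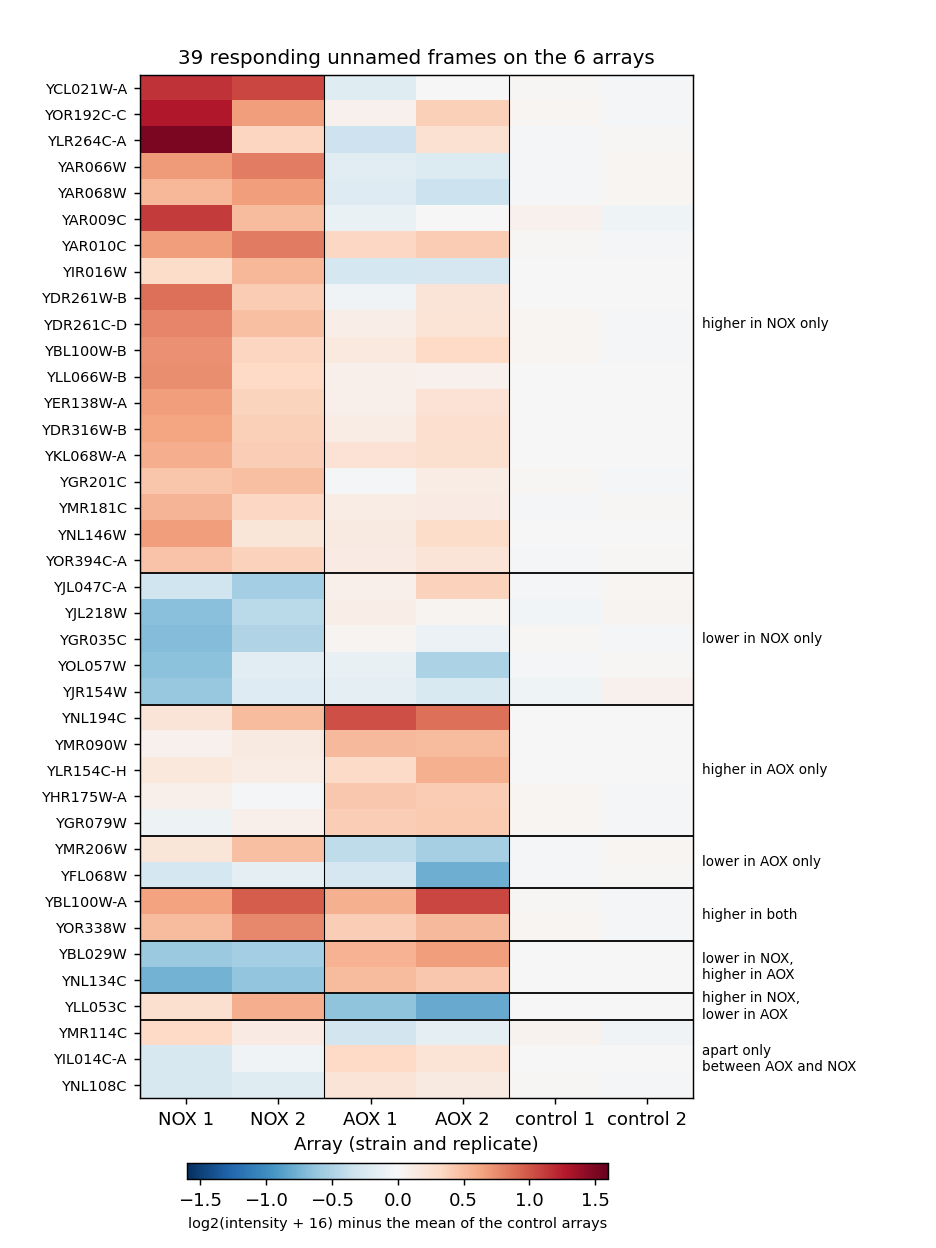
Each row is a member, each column an array of the NOX, AOX or control strain, and the colour is log2(intensity + 16) minus the mean of the control arrays, with lines between the patterns. The 19 members higher in NOX only fill the top block, and YLR264C-A is more strongly coloured on NOX replicate 1 than on NOX replicate 2.

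**Figure D2:**
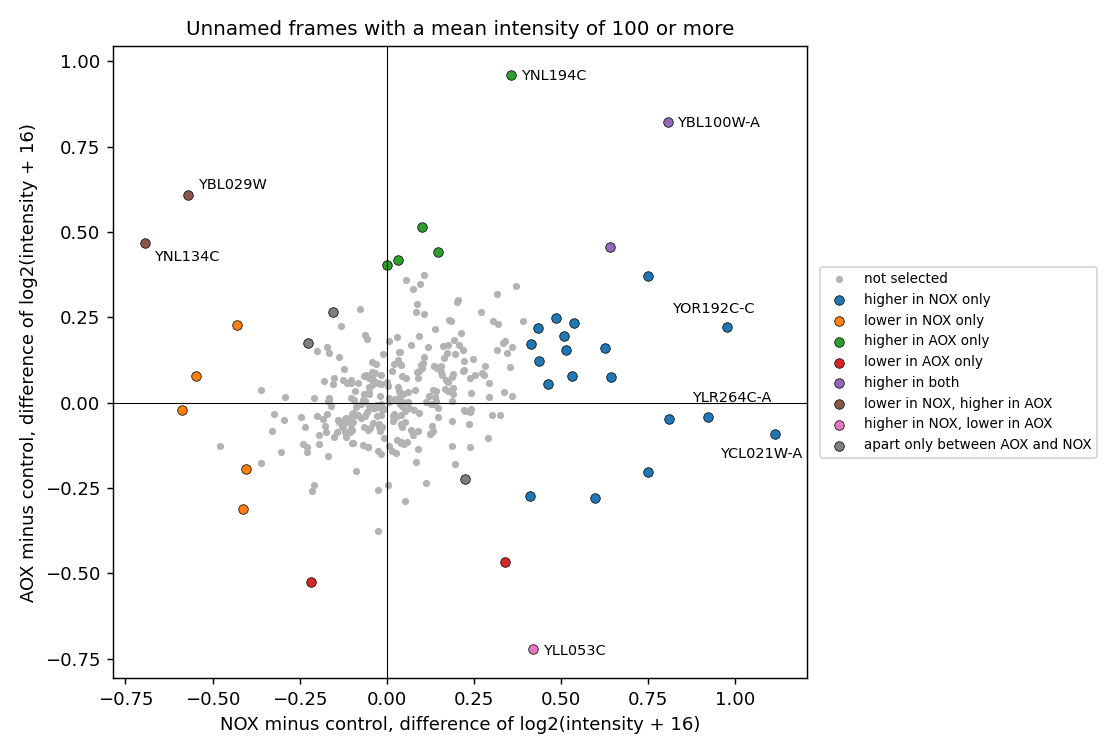
The horizontal axis is NOX minus control and the vertical axis AOX minus control for the 323 unnamed frames at 100 or more, as differences of log2(intensity + 16), with members coloured by pattern. YBL029W and YNL134C stand alone at the upper left, lower in NOX and higher in AOX, and YLL053C at the lower right.

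The 3 frames that met the rule on opposite sides of control were among the 4 with a difference of 1 or more. YNL134C, related to alcohol dehydrogenases and reported to reduce aldehydes with NADH, gave 558 and 609 in NOX, 1362 and 1288 in AOX, and 953 and 955 in control. The 3 strains did not overlap, with NOX lowest and AOX highest. The difference was -0.70 ± 0.06 for NOX minus control, 0.47 ± 0.04 for AOX minus control and 1.16 ± 0.07 for AOX minus NOX (SE, n = 2 arrays each). YBL029W, a frame of chromosome II of unknown function, had the same order. It gave 132 and 137 in NOX, 311 and 338 in AOX, and 209 and 206 in control. Its differences were -0.57 ± 0.03 and 0.61 ± 0.06 against control, and 1.18 ± 0.06 between AOX and NOX, which is 2.26-fold.

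YLL053C ran the other way and belongs to a known gene. In the S288C reference the water channel gene AQY2 is split, and YLL053C is its other piece, overlapping the frame still called AQY2 by 50 base pairs. YLL053C gave 2905 and 3628 in NOX, 1547 and 1378 in AOX, and 2405 and 2436 in control. The AQY2 frame has a probe set of its own, with 1701 and 1990 in NOX, 860 and 781 in AOX, and 1278 and 1288 in control. AOX arrays were lowest and NOX arrays highest for both pieces. AOX minus NOX was -1.14 ± 0.18 for YLL053C and -1.15 for AQY2.

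The largest difference of any member was that of YCL021W-A, a frame of 378 base pairs on chromosome III that lies next to YCL020W, a Ty Gag frame not measured here. It gave 603 and 569 in NOX, 226 and 264 in AOX, and 266 and 258 in control. Only the NOX arrays stood apart. The difference was 1.12 ± 0.05 for NOX minus control (2.17-fold), -0.09 ± 0.11 for AOX minus control and -1.21 ± 0.11 for AOX minus NOX.

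Among the 4678 named probe sets at 100 or more, those whose 6 arrays lay nearest to these profiles, each centred on its control mean, were listed by root mean square distance as a description. Nearest to YCL021W-A were SRD1 at 0.069, whose product is tied to ribosomal RNA processing, BAP2, a permease of branched-chain amino acids, at 0.087, and the protein kinase gene PRR2 at 0.16. SRD1 gave 1210 and 1236 in NOX, 491 and 520 in AOX, and 550 and 577 in control. BAP2 likewise was higher in NOX by 1.05. Nearest to YBL029W were the polyamine transporter gene TPO2 at 0.060, the serine hydrolase gene FSH1 at 0.13 and CWP1, a cell wall mannoprotein, at 0.15. For YNL134C they were CWP1, the mannosyltransferase gene MNN1 and the polyamine transporter gene TPO1, each at 0.11. TPO2 differed by -0.47 for NOX minus control and 0.59 for AOX minus control, close to the values of YBL029W.

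Ty frames made up 7 of the 39 members, and 6 of the 7 were higher in NOX only. A list of Ty frames drawn up after the values were seen holds 13 measured probe sets, 9 of them at 100 or more. Among the 6 that are no members, the Ty3 Gag-Pol frames YGR109W-B and YIL082W-A lay above 100 and differed by 0.20 and 0.18 for NOX minus control. The other 4 were below 100, namely the Gag frame YBL005W-A at 10.5 to 21.1, the Ty3 Gag frame YGR109W-A, and the Ty4 frames YHL009W-A and YHL009W-B. All 7 member probe sets carry the suffix that Affymetrix gives to probe sets shared by several transcripts, and they cannot be assigned to single copies. The reference table lists 24 unnamed frames of exactly the length of YDR316W-B (5269 base pairs), 10 of the length of YDR261W-B and YBL100W-B (5314), and 31 of the length of YAR010C (1323). YAR009C and YDR261C-D share their length with no other unnamed entry. No sequences were compared, so how far the 7 values are independent was not measured.

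YDR316W-B, a Gag-Pol frame, was the brightest member. It gave 9607 and 8066 in NOX, 6724 and 7447 in AOX, and 6215 and 6150 in control. Every NOX array lay above every AOX array, and every AOX array above every control array. NOX minus control was 0.51 ± 0.13 and AOX minus control 0.19 ± 0.07. Of the other Gag-Pol frames, YDR261W-B gave 5317 and 3847 in NOX, 2780 and 3338 in AOX, and 2908 and 2871 in control. YBL100W-B gave 4034 and 3099 in NOX, 2700 and 3033 in AOX, and 2484 and 2380 in control. Both had the NOX arrays highest, although the distance between NOX replicates was wide.

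The 5 frames that hold Pol (YAR009C, YBL100W-B, YDR261W-B, YDR261C-D and YDR316W-B) differed by 0.51 to 0.81 for NOX minus control and by -0.05 to 0.23 for AOX minus control. All 5 were brighter on NOX replicate 1 than on NOX replicate 2. On replicate 2 alone they were 0.35 to 0.51 above control, against 0.63 to 1.12 on replicate 1, so that without replicate 1 YBL100W-B (0.35) and YDR316W-B (0.38) were under the limit of 0.4. YAR009C had the widest gap, with 2281 and 1489 in NOX, 972 and 1047 in AOX, and 1098 and 992 in control.

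Both member Gag frames had the opposite order of NOX replicates. YAR010C, the Gag frame that lies next to YAR009C on chromosome I, gave 5024 and 5670 in NOX, 3996 and 4214 in AOX, and 3202 and 3134 in control. Its difference was 0.75 ± 0.09 for NOX and 0.37 ± 0.04 for AOX, both minus control. YBL100W-A, a Gag frame that lies inside the Gag-Pol frame YBL100W-B, gave 222 and 284 in NOX, 211 and 305 in AOX, and 139 and 134 in control. It differed by 0.81 ± 0.17 and 0.82 ± 0.25, so both oxidase strains lay above control and overlapped each other. The larger frame around it differed by 0.54 in NOX and 0.23 in AOX.

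**Figure D3:**
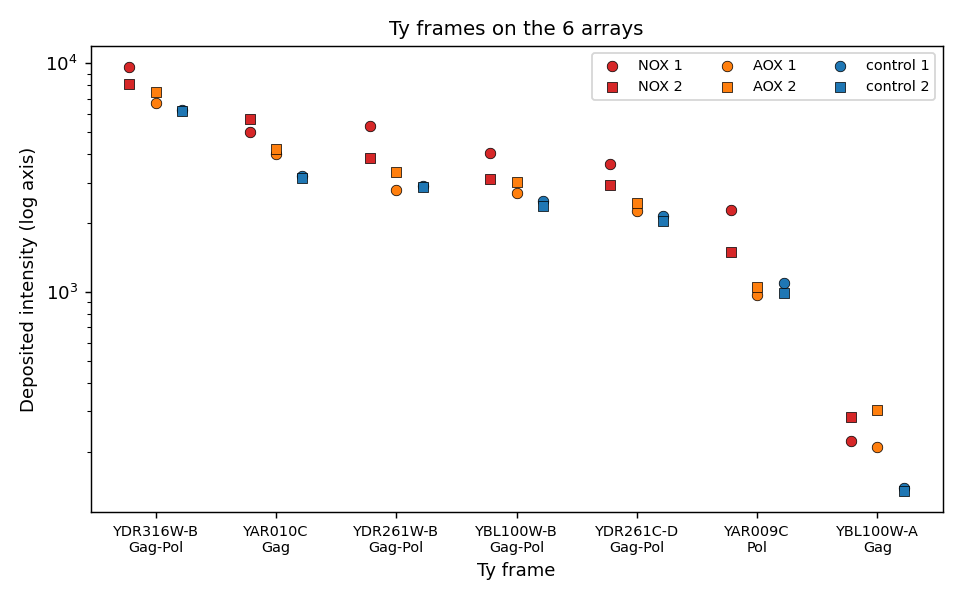
The 7 member Ty frames are plotted with the deposited intensity on a log axis, circles for replicate 1 and squares for replicate 2, in NOX, AOX and control. NOX lies highest for 6 of the 7, with replicate 1 on top for the 5 Pol-bearing frames and replicate 2 on top for YAR010C, and for YBL100W-A the NOX and AOX arrays overlap.

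The members YOR192C-C and YER138W-A are short frames that lie beside Ty frames. YOR192C-C, of 237 base pairs, lies next to the Gag-Pol frame YOR192C-B, and gave 1355 and 877 in NOX, 572 and 714 in AOX, and 559 and 533 in control (0.98 ± 0.31 for NOX minus control). YER138W-A, of 105 base pairs beside the Gag frame YER137C-A, gave 5019 and 4048 in NOX, 3322 and 3692 in AOX, and 3169 and 3126 in control. Both were higher on NOX replicate 1 than on NOX replicate 2. YER138W-A differed by 0.52 for NOX minus control, and by 0.36 without NOX replicate 1. It has a shared probe set, so its signal cannot be assigned to this frame alone.

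Of the 19 members higher in NOX only, 14 were brighter on NOX replicate 1 than on replicate 2, whereas among the 54 named probe sets of the same pattern 23 were. The median distance from control was 0.67 on NOX replicate 1 and 0.41 on NOX replicate 2 for the members, and 0.56 and 0.58 for the named probe sets. Among those lower in NOX only, NOX replicate 1 was the lower array for 4 of 5 members and for 30 of 30 named probe sets. Their medians on NOX replicates 1 and 2 were -0.66 and -0.43 for the members and -0.72 and -0.35 for the named probe sets. For the pattern lower in NOX only, a larger distance from control on NOX replicate 1 was thus not limited to unnamed frames. For the pattern higher in NOX only, the median of the named probe sets was not larger on this array. YLR264C-A, a frame of 117 base pairs next to the ribosomal protein gene RPS28B, rested most on this array, with 944 and 412 in NOX, 253 and 385 in AOX, and 317 and 327 in control. Its AOX minus NOX difference was -0.96 ± 0.65, and -0.38 without NOX replicate 1. The low ribosomal RNA and high hybridisation control signal of the array moved with these values, and their part in the result was not tested. Without NOX replicate 1 the rule found 34 members, 25 of them among the 39, and 23 of these kept their pattern.

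YAR066W and YAR068W are neighbours near the right end of chromosome I. YAR066W, on a shared probe set, gave 387 and 427 in NOX, 205 and 200 in AOX, and 229 and 241 in control. YAR068W gave 1019 and 1122 in NOX, 605 and 548 in AOX, and 688 and 715 in control. For both, NOX arrays lay above control and AOX arrays below it, with NOX minus control at 0.75 ± 0.08 and 0.60 ± 0.07 and AOX minus control at -0.20 ± 0.04 and -0.28 ± 0.08.

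YIR016W gave 1239 and 1472 in NOX, 832 and 835 in AOX, and 1005 and 1019 in control, the same order as YAR068W at smaller size (0.41 ± 0.12 for NOX minus control). YGR201C gave 422 and 434 in NOX, 303 and 335 in AOX, and 310 and 303 in control. The remaining frames of the group, YLL066W-B, YKL068W-A, YMR181C, YNL146W and YOR394C-A, differed by 0.41 to 0.53 for NOX minus control. All 5 were under 0.4 without NOX replicate 1: YKL068W-A at 0.40 (0.397 before rounding), YOR394C-A at 0.37, YMR181C at 0.33, YLL066W-B at 0.32 and YNL146W at 0.20. YLL066W-B lies between YLL067C and YLL066C, helicase frames of the repeated subtelomeric Y' element, and has a shared probe set. A pair of further probe sets for YLL066W-B, with means of 108 and 88.7, did not meet the rule and differed by 0.34 and -0.19 for NOX minus control.

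The 5 frames lower in NOX only included 2 with a known or likely enzyme product. YOL057W encodes a dipeptidyl peptidase, and YJL218W resembles bacterial sugar O-acetyltransferases. YJL218W gave 206 and 247 in NOX, 366 and 348 in AOX, and 328 and 347 in control, so that only NOX stood apart (-0.55 ± 0.13 against control). YOL057W gave 345 and 489 in NOX, 507 and 385 in AOX, and 543 and 562 in control. Its AOX arrays were also below control, and its difference for NOX was -0.41 ± 0.24, and -0.17 without NOX replicate 1.

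YGR035C, whose transcription is tied to regulators of multidrug resistance, gave 98.4 and 116 in NOX, 175 and 158 in AOX, and 170 and 167 in control (-0.59 ± 0.10). YJL047C-A, of 135 base pairs, overlaps the small nucleolar RNA gene SNR60 by 49 base pairs, and its signal cannot be told apart from that RNA. It gave 202 and 170 in NOX, 270 and 334 in AOX, and 250 and 259 in control. YJR154W, at the edge of the rule, gave 86.3 and 119 in NOX, 125 and 115 in AOX, and 133 and 146 in control, with AOX and NOX overlapping. NOX minus control was -0.40 ± 0.21, and -0.20 without NOX replicate 1 and -0.34 without control replicate 2.

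Of the 5 members higher in AOX only, YNL194C had the largest difference. It encodes a membrane protein of the Sur7 family found in eisosomes, the furrows of the yeast plasma membrane. It gave 207 and 185 in AOX, 110 and 138 in NOX, and 93.7 and 91.9 in control, so that all strains were apart and AOX was highest. AOX minus control was 0.96 ± 0.08 (1.95-fold) and NOX minus control 0.36 ± 0.15. YMR090W, whose product has the fold of NAD(P)-binding dehydratases and epimerases, gave 278 and 276 in AOX, 199 and 210 in NOX, and 190 and 189 in control (0.51 ± 0.01 for AOX minus control).

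YHR175W-A, a frame of 150 base pairs, gave 1246 and 1230 in AOX, 975 and 914 in NOX, and 944 and 901 in control. A gap of 116 base pairs separates it from CTR2, a transporter that releases copper from the vacuole, and CTR2 itself gave 1986 and 1823 in AOX, 1322 and 1443 in NOX, and 1457 and 1414 in control. Only the AOX arrays stood apart for both, and AOX minus control was 0.42 ± 0.03 for YHR175W-A and 0.40 for CTR2. YGR079W had 283 and 288 in AOX, 199 and 226 in NOX, and 217 and 207 in control.

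YLR154C-H lies in the ribosomal DNA, overlaps the 5S RNA gene RDN5-2 by 105 base pairs and has a shared probe set. It gave 355 and 430 in AOX, 322 and 310 in NOX, and 283 and 284 in control. AOX minus control was 0.44 ± 0.13, and 0.31 without AOX replicate 2, under the limit of 0.4. The AOX replicates also differed in ribosomal RNA probe sets, which averaged 6.03 on replicate 1 and 7.06 on replicate 2, against 7.36 and 7.53 on the control arrays. The part of ribosomal RNA in this value was not tested.

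Lower in AOX only were YMR206W and YFL068W. YMR206W gave 299.9 and 272 in AOX, 462 and 566 in NOX, and 393 and 408 in control, with AOX lowest and NOX highest. Its AOX minus NOX difference was -0.81 ± 0.16. YFL068W, the first annotated gene of chromosome VI, gave 110 and 71.8 in AOX, 109 and 120 in NOX, and 133 and 137 in control, and rested on AOX replicate 2: without it AOX minus control was -0.26.

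YOR338W, a paralog of FUN19, was the second member higher in both oxidase strains. It gave 124 and 151 in NOX, 113 and 125 in AOX, and 84.8 and 79.7 in control, and NOX and AOX overlapped. NOX minus control was 0.64 ± 0.13 and AOX minus control 0.46 ± 0.07. The 3 frames that met the rule only between AOX and NOX were small in difference. YMR114C, of a protein family that shields abasic sites in DNA, differed by -0.45 ± 0.11, YIL014C-A by 0.42 ± 0.11 and YNL108C, similar to the transcription factor subunit Tfc7, by 0.40 ± 0.04. Without NOX replicate 1 these differences were -0.36 for YMR114C, 0.32 for YIL014C-A and 0.37 for YNL108C. Without AOX replicate 1 they were -0.38 for YMR114C, 0.37 for YIL014C-A and 0.37 for YNL108C. All 3 were thus under 0.4 in size without either array, and YNL108C also with quantile normalization (0.38).

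The unnamed frames met the rule more often than named genes did. Of the 323 at 100 or more, 39 did (12.1%), against 281 of 4678 named probe sets (6.01%), a ratio of 2.01. Without the Ty frames the share was 32 of 314 (10.2%), a ratio of 1.70. At intensities from 100 to 300 the shares were 11.2% and 8.04%, from 300 to 1000 they were 9.72% and 5.49%, and at 1000 or more 22.2% and 5.58%, the unnamed share first. In the brightest class 6 of the 10 responding unnamed probe sets were Ty frames, and 4 of 39 (10.3%) responded without them. Genes are not replicates, so these shares describe the array and were not tested.

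**Figure D4:**
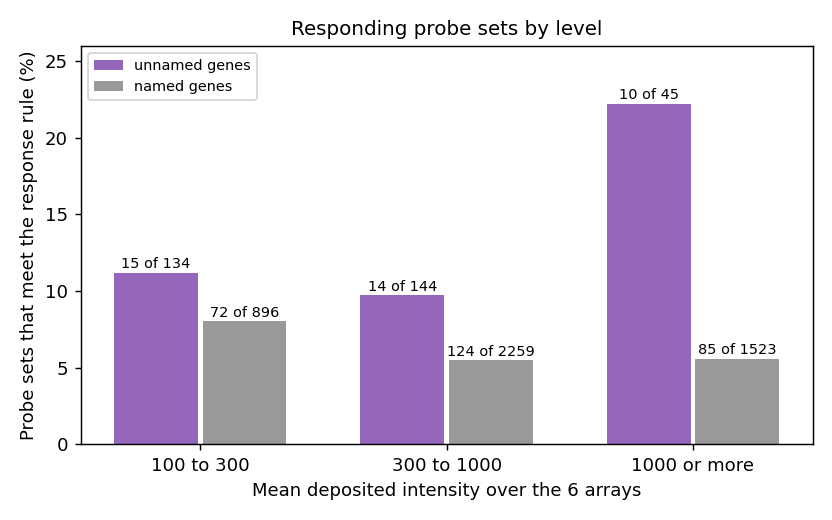
Bars give the percentage of probe sets that met the response rule, unnamed genes left and named genes right, in 3 classes of mean deposited intensity, with the counts above the bars. The unnamed bar is higher in every class, and at 1000 or more it holds 10 of 45 probe sets, 6 of them Ty frames.

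The members also differed from other genes in features that the rule did not use. Their median gene length was 678 base pairs, against 956 for the 284 unnamed frames at 100 or more that did not respond and 1293 for named genes. Frames under 300 base pairs made up 9 of 39 members (23.1%), 10.2% of the other unnamed frames and 2.24% of named genes. Shared probe sets were 11 of 39 (28.2%), against 4.23% and 1.26%, and the 11 include all 7 member Ty frames. Within 10 annotated genes of a chromosome end lay 7 members (17.9%), namely YAR066W, YAR068W, YFL068W, YJL218W, YJR154W, YLL066W-B and YOR394C-A, against 9.51% and 2.48%. For the 281 named probe sets that met the rule, the median length was 1197 base pairs and 3.56% were under 300 base pairs. Shared probe sets made up 1.78% of them, and 6.41% lay within 10 annotated genes of a chromosome end. The spread between replicates is a quantity that the rule did use. Its median absolute difference in NOX was 0.23 for the members, 0.15 for the other unnamed frames, 0.18 for the named probe sets that met the rule and 0.13 for all named ones. The part of this spread in the choice of members was not tested.

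Of the 36 members with a measured neighbour, overlapping or adjacent in the gene table, 10 (27.8%) had one, at any intensity, that differed by 0.4 or more without overlap in the same contrast and direction. Among named probe sets that responded, 28 of 275 (10.2%) did. With neighbours at 100 or more only, it was 8 members (22.2%) and 21 named probe sets (7.64%). For 6 of the 10 members the neighbour was itself a member: the pair YAR066W and YAR068W, and Ty frames beside each other. A pair of members that both met the rule in this way was counted from each side. The Ty frames have shared probe sets, and how far their values are independent was not measured. A named neighbour of this kind was found for 4 of the 36 members and for 25 of the 275 named probe sets, at any intensity. The difference between the shares above thus lay mostly in neighbours that were themselves unnamed. The 4 named neighbours were AQY2 for YLL053C, CTR2 for YHR175W-A, THI72, a thiamine transporter homolog, for YOR192C-C, and the seripauperin gene PAU21 for YOR394C-A. THI72 was 0.49 and PAU21 0.46 above control in NOX, but both lay below 100 on all arrays, between 20.5 and 83.6. YBL029W and YNL134C had no such neighbour: the adjacent genes differed by 0.01 and 0.16 for YBL029W, and FYV6 beside YNL134C by 0.05, in AOX minus NOX.

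**Figure D5:**
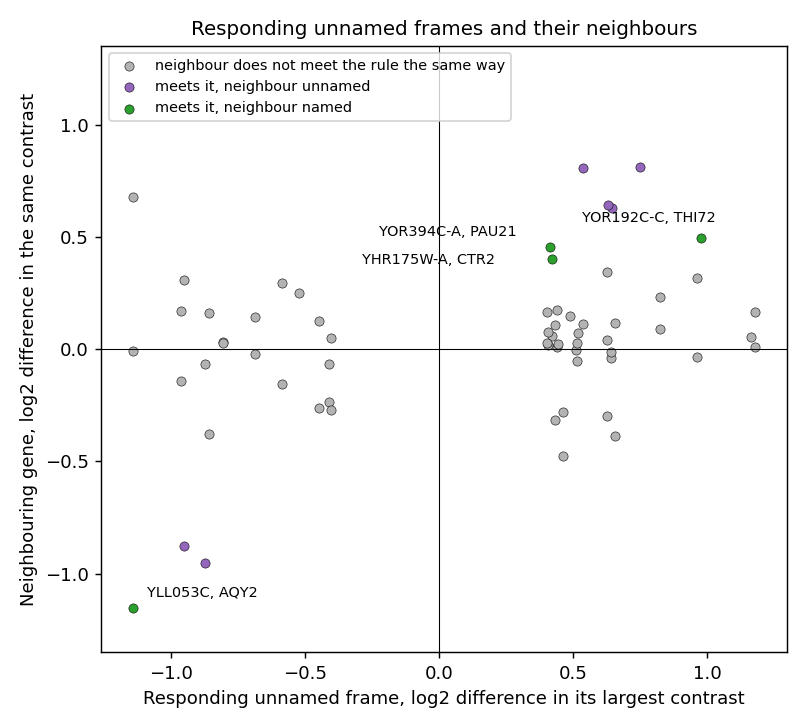
Each point is a member and one measured neighbour, with the member's log2 difference in its largest contrast on the horizontal axis and the neighbour's in the same contrast, at any intensity, on the vertical axis. YLL053C with AQY2 lies at the lower left, and most neighbours of other members lie near 0.

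With the limma fit across all 5498 probe sets, on quantile-normalized values and with Benjamini-Hochberg adjustment at 0.05, 12 of the 39 members were called for NOX minus control, where 3.71% of all probe sets were called. For AOX minus control it was 7 of 39 (3.58% over all), and for AOX minus NOX 19 of 39 (8.38% over all). The rule used the same contrasts, so these counts are no support for the members. When either control array was left out, the counts of members fell, and so did the calls over all probe sets.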

How the data were processed

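Biotin-labelled cRNA from total RNA was put on Affymetrix Yeast Genome 2.0 arrays, as the labels' protocols state. The authors deposited 1 linear intensity for each probe set and array. The way these were summarised and scaled was not given in the sources used here. Of 10928 probe sets, 5498 matched 1 gene of the RefSeq R64 table through Entrez identifiers (5449 genes). Genome coordinates are not printed, as the build behind the annotation is not named; the table was used for names, lengths, overlaps and neighbours. No sequence tables were used, so promoter motifs were not searched.

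The selection rule ran on the deposited intensities as log2(intensity + 16). The limma 3.58.1 fit (R 4.3.3) had a mean per strain over 6 arrays with quantile normalization over the whole table, since array medians differed by 0.204, above the limit of 0.1. It was tested on simulated data. Whether replicate numbers pair the samples is not known, and the main fit does not pair them. Differences between replicates correlated across probe sets at -0.60 for NOX and AOX, 0.12 for NOX and control and -0.21 for AOX and control. These values cannot decide it, since NOX replicate 1 stood apart from the other arrays. p-values measure the spread between these arrays, which may be technical.

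The members and lists were chosen with earlier results of these data known. Members named were the up to 6 with the largest difference per pattern, all with a difference of 1 or more, those at the edge of the rule, neighbours that differed the same way, and the named genes nearest to the 3 largest members. The Ty frames and the other members were named after their values were seen. Alternatives tried were scaling, pseudocounts, level and difference limits, overlap, a replicate block and leaving out each array.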

Additional observations from a re-analysis of the deposited data

Results flagged for a closer look

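Among 3470 probe sets that the annotation used here gives no gene name, 190 had a mean intensity of 100 or more, and 16 of these (8.42%) met the selection rule. They lie outside the comparisons above. The largest difference was that of probe set 1770587_at, with 159 and 158 in AOX, 370 and 377 in NOX, and 289 and 283 in control (AOX minus NOX -1.16). Probe set 1780022_at gave 161 and 166 in NOX, 216 and 194 in AOX, and 104 and 106 in control, above control in both oxidase strains.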

How the results depend on the processing

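With quantile normalization 39 frames met the rule, 36 of them the same, and with median scaling 38, of which 37 were the same. A limit of 0.3 on the difference gave 77 members and 20 with a neighbour moving the same way. A limit of 0.6 gave 19 members, 10 of which kept their pattern, and 6 with such a neighbour. Leaving out 1 array gave 34 to 65 members (34 without NOX replicate 1, 65 without NOX replicate 2), between 23 and 38 members that kept their pattern, 8 to 13 with such a neighbour, and a ratio of unnamed to named shares of 1.69 to 2.09. No difference of a member changed sign in its largest contrast under the scalings, the pseudocounts of 1 and 64 or any array left out. With a pseudocount of 64, 29 of the 39 still met the rule. The causes were not tested.

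In the limma fit the replicate block gave 7 members for NOX minus control, 5 for AOX minus control and 14 for AOX minus NOX, against 12, 7 and 19 without it. Over all probe sets it gave 79, 124 and 237 calls, against 204, 197 and 461. The numbers are not known to pair the samples. Leaving out each array gave 0 to 28 members called for NOX minus control, 0 to 13 for AOX minus control and 10 to 34 for AOX minus NOX. A lone array was then assumed to vary like the other strains. The calls over all probe sets rose and fell together with the members called in these fits. These changes therefore describe the array left out and are no result about the members. The promoter motif search was not run. The ratio without Ty frames, and the reading of the rule in which the pair with the largest difference must itself be without overlap (39 members), were chosen after seeing the data.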
